A study of Arabidopsis thaliana with 6 samples.

Results

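The 9 nuclear genes that encode the proteins of the trimeric light-harvesting complex of photosystem II (LHCII) were followed in Arabidopsis thaliana seedlings with a mutation of CPL2. They were taken by locus identifier from the 38192 genes of the deposited count table and comprise the 5 LHCB1 genes, the 3 LHCB2 genes and the single LHCB3 gene. RNA came from the aerial parts of seedlings 9 days old, grown at 23 ± 2 °C with 16 h of light and 8 h of dark. The tested plants were cpl2-2, labelled as a knockout of CPL2, and they were set against wild type of the accession Col (WT), with 3 biological replicates of each genotype and no further treatment. The CPL2 protein belongs to the phosphatase-like proteins that dephosphorylate the carboxy-terminal repeats of RNA polymerase II. The labels do not give the lesion of cpl2-2 or say whether more than a single line was used.

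LHCII is the main antenna of plant chloroplasts. Its proteins bind chlorophyll a and chlorophyll b and pass the absorbed light energy to photosystem II. LHCB1 and LHCB2 proteins carry a phosphorylation site for the kinase STN7, and phosphorylated LHCB2 allows LHCII to dock to photosystem I during state transitions, whereas LHCB3 lacks that site and sits in the trimers that are moderately bound to photosystem II. The genes are transcribed in the nucleus, chiefly in green tissue in the light, and the proteins enter the chloroplast as precursors.

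All 9 genes were called different between the genotypes, in opposite directions. Calls were common in this comparison, with 27.3% of all tested genes called, and 55.3% of those averaging 50 CPM or more. LHCB3 and 4 of the 5 LHCB1 genes fell in cpl2-2, to between 60.3% and 76.4% of the WT level, while LHCB1.4 and the 3 LHCB2 genes rose, LHCB2.3 by 4.46-fold; the call of LHCB2.1 was weak and is qualified with its values. The fall of the abundant copies outweighed the rises, so that the summed LHCII transcripts were at 74.1% of the WT level, and LHCB1 counts were 50.6 times LHCB2 counts in cpl2-2, against 121 times in WT.

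The LHCB1 genes lie in 2 groups. LHCB1.2 (AT1G29910, chromosome 1, 10472280 to 10473502, minus strand), LHCB1.1 (AT1G29920, 10474656 to 10475969, minus strand) and LHCB1.3 (AT1G29930, 10477885 to 10479114, plus strand) follow each other on chromosome 1. LHCB1.5 (AT2G34420, chromosome 2, 14522524 to 14523568, minus strand) and LHCB1.4 (AT2G34430, 14524607 to 14525918, plus strand) are divergently transcribed neighbours, with 1038 bases between their annotated starts and no listed gene between them. LHCB2.2 (AT2G05070, chromosome 2, 1799234 to 1800472, minus strand) and LHCB2.1 (AT2G05100, 1822990 to 1824480, minus strand) are 22517 bases apart with 5 listed genes between them. LHCB2.3 (AT3G27690, chromosome 3, 10255906 to 10257489, plus strand), which the deposited description calls LHCB2.4, and LHCB3 (AT5G54270, chromosome 5, 22038165 to 22039568, plus strand) stand alone. Coordinates are those of the deposited table, on TAIR10. In the RefSeq annotation of TAIR10.1, a single transcript model was read for each gene. In these models each LHCB1 gene is a single exon, each LHCB2 gene has 2 exons and LHCB3 has 3. LHCB2.1 and LHCB2.3 each have 2 annotated models.

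The copies are close relatives, which bears on how far the reads of one can be told from those of another. Coding sequences were 86.8% to 96.4% identical among LHCB1 genes and 84.4% to 96.6% among LHCB2 genes, 70.1% to 73.2% between the families, and 64.5% to 67.8% between LHCB3 and the others. The first 60 coding bases, which are the start of the chloroplast transit peptide, are given here to show how few differences separate the copies. Capitals mark bases that differ from LHCB1.3 (for LHCB1) or from LHCB2.1 (for LHCB2).
LHCB1.3: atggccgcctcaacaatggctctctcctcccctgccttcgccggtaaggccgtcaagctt
LHCB1.1: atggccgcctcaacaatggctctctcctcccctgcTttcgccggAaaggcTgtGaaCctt
LHCB1.2: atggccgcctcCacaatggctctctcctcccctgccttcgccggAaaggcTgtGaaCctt
LHCB1.5: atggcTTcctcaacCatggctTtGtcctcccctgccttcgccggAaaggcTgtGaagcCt
LHCB1.4: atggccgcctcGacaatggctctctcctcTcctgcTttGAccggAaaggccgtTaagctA
LHCB2.1: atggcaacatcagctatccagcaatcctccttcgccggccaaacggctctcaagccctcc
LHCB2.2: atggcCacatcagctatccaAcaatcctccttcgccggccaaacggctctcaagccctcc
LHCB2.3: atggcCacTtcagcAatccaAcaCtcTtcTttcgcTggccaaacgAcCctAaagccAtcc

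LHCB1.1 and LHCB1.2 each had 5 differences from LHCB1.3 in this stretch, LHCB1.5 had 9 and LHCB1.4 had 8. LHCB2.2 had 2 differences from LHCB2.1 and LHCB2.3 had 12. The sources used here do not give the read length, so windows of 75 and of 150 bases along each transcript were counted in the TAIR10.1 genome, leaving out those without a genome match, such as windows over a splice junction. At 75 bases, 89.6% to 96.3% of the windows of LHCB1 transcripts occurred once in the genome, against 83.8% of LHCB2.1, 79.6% of LHCB2.2 and every window of LHCB2.3 and LHCB3. At 150 bases all windows of LHCB1, LHCB2.3 and LHCB3 transcripts were unique, as were 99.7% of those of LHCB2.1 and 99.6% of those of LHCB2.2. So no window counted for LHCB2.3 or LHCB3 had an exact match elsewhere in the genome, and LHCB2.1 and LHCB2.2 shared the most. A single transcript model was searched for each gene. For LHCB2.3 that model has 1170 bases, where the deposited gene length is 1465, so part of the counted sequence was not searched. Windows over splice junctions and inexact matches were not searched either. The sources used here do not say how reads with several matches were counted, so single values of LHCB1.1 to LHCB1.5, LHCB2.1 and LHCB2.2 are uncertain, and sums are given beside them.

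The 250 bases before the annotated start are shown for the pair of genes that rose most and the pair that fell most. Sequences are from RefSeq TAIR10.1, read in the direction of the gene, and capitals mark the searched motifs.
LHCB2.3, chr3:10255656-10255905, plus strand: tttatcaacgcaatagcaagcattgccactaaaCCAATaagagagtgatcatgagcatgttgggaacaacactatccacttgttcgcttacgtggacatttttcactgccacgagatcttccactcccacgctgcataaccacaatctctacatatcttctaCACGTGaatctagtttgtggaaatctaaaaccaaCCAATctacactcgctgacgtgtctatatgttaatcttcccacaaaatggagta
LHCB1.4, chr2:14524357-14524606, plus strand: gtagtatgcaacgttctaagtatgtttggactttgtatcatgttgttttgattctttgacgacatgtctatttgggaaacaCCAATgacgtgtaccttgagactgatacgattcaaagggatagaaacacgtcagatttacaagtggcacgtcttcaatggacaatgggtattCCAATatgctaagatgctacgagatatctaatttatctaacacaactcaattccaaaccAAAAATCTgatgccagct
LHCB1.2, chr1:10473503-10473752, minus strand: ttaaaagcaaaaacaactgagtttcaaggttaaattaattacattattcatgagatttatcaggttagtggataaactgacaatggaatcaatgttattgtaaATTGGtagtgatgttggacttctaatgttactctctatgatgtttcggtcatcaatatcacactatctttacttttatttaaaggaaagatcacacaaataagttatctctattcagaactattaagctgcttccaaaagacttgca
LHCB1.5, chr2:14523569-14523818, minus strand: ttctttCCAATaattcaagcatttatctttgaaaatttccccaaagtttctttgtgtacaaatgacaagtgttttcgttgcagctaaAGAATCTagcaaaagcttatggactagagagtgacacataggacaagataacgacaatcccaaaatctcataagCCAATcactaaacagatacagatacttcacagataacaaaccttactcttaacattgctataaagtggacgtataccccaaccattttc

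Each window was searched on both strands for 6 short motifs known from plant promoters, most of them from light-regulated or clock-regulated genes. The CCAAT box (CCAAT) occurred in the windows of 9 of the 9 genes, against 44.8% of the 37998 windows of the same length before all nuclear genes. The G-box (CACGTG) occurred in 1 member window, that of LHCB2.3 (5.40% of all windows), and the I-box (GATAAG) in that of LHCB2.1 (12.7%). The CCA1 site (AAAAATCT) was found before LHCB1.1 and LHCB1.4 (6.10% of all windows), and the GLK site (AGATTCT) before LHCB1.5 (6.31%). The evening element (AAAATATCT), in 2.11% of all windows, was in 0 of the 9. None of these motifs overlapped another in the member windows. No motif of the 6 separated the genes that rose from those that fell; a match describes letters in the window and no more.

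Counts of the 9 genes in single libraries ran from 396 to 228267, in libraries of 18299294 to 21098728 counts. Levels are CPM, counts scaled to the library total after TMM adjustment. The coefficient of variation over the 3 libraries of a genotype was between 0.673% and 5.68% in cpl2-2 and between 1.29% and 4.71% in WT. CPL2 was at 10.7 ± 0.15 CPM in cpl2-2 and 19.0 ± 0.47 CPM in WT (SD, n = 3 each; log2 fold change -0.82, SE 0.10, adjusted p = 6.0e-09), so that transcript reads remained in the mutant. The mesophyll markers RBCS1A, LHCA1, CA1 and RCA were abundant in all libraries, with a summed level of 34851 to 36246 CPM in cpl2-2 and 43119 to 44369 CPM in WT. Of the 4, 4 were called lower in cpl2-2, as were 35.0% of all tested genes averaging 50 CPM or more. All 4 are photosynthesis genes, and LHCA1 is listed again below among the antenna genes, so they are not a measure of mesophyll separate from such genes. Of 7 root markers EXPA7 and IRT1 had no count, CASP1 was called higher at 1.29 ± 0.31 CPM in cpl2-2 and 0.54 ± 0.17 CPM in WT, and the list summed to 1.52 to 2.91 CPM in cpl2-2 and 1.33 to 1.56 CPM in WT. Of the floral organ markers AP3, PI, AG and SEP3, none was at 0 in all libraries, and the sum was 10.2 to 12.1 CPM in cpl2-2 and 2.92 to 3.56 CPM in WT. Most of that sum was SEP3, called higher at 9.68 ± 1.14 CPM in cpl2-2 and 2.32 ± 0.69 CPM in WT. PI, at 1.14 CPM in cpl2-2 and 0.60 CPM in WT, was not called (adjusted p = 0.11). AP3 (0.23 CPM in cpl2-2, 0.016 in WT) and AG (0.22 in cpl2-2, 0.29 in WT) were too low to be tested. Epidermis and guard cell markers (ATML1, FAMA, MYB60) summed to 116 to 123 CPM in cpl2-2 and 126 to 128 CPM in WT, with FAMA lower. Markers of vasculature and meristem (SUC2, STM, WUS, CLV3) summed to 96.0 to 99.95 CPM in cpl2-2 and 99.8 to 104 CPM in WT. Most of that sum was the vascular marker SUC2, at 91.2 CPM in cpl2-2 and 97.8 CPM in WT, which was not called (adjusted p = 0.096). The meristem marker STM was called higher, at 7.37 ± 0.82 CPM in cpl2-2 and 3.92 ± 0.56 CPM in WT (adjusted p = 4.1e-05). WUS (0.052 CPM in cpl2-2) and CLV3 (0.050 CPM in cpl2-2) were too low to be tested. The part of these shifts in the LHCII values was not tested, and fewer cells of a type and less RNA per cell cannot be told apart in such samples.

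Calls rest on an adjusted p below 0.05 from edgeR's quasi-likelihood test over all 19302 genes tested, and all 9 LHCII genes passed the filter on low counts. Of the 9, 5 were called lower and 4 higher in cpl2-2, where 13.3% of all tested genes were called lower and 14.1% higher (27.3% in all). Precision rises with abundance, so the share was also taken over the 3362 tested genes averaging 50 CPM or more, a floor set after the values were seen; there 55.3% were called, 35.0% lower and 20.3% higher. The CPM of the genotypes did not overlap for 9 of the 9 genes, against 39.0% of all tested genes. That share was not taken over the genes averaging 50 CPM or more. A called rise of at least 2-fold was seen in 1 of the 9, against 3.07% of all tested genes. Scaled by library totals alone, the split over all genes was 3951 higher and 1671 lower rather than 2717 and 2560, and the LHCII genes were still 4 higher and 5 lower.

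**Figure D1:**
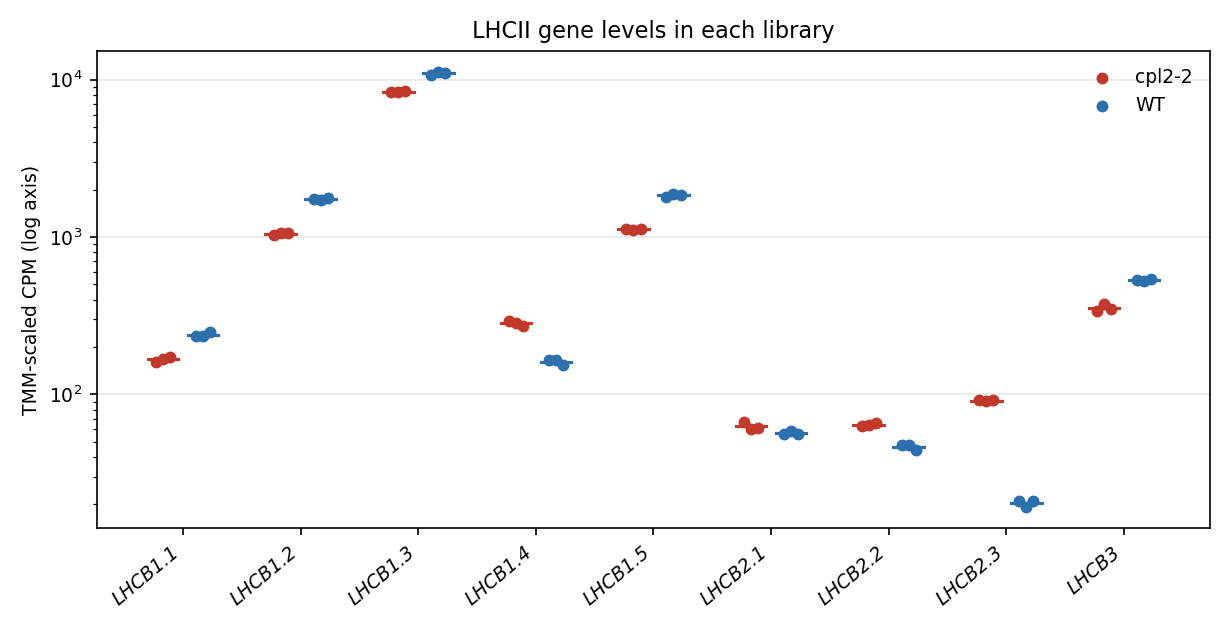
Level of each LHCII gene in every library, as TMM-scaled CPM on a log axis; red points are the 3 cpl2-2 libraries, blue points the 3 WT libraries and bars their means. LHCB1.3 is the most abundant gene in both genotypes, and LHCB1.4 and the 3 LHCB2 genes are the ones with red points above the blue.

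LHCB1.3, the LHCB1 copy with the highest level per length, ranked 5 in cpl2-2 and 4 in WT among all genes by CPM per kilobase, had 8384, 8342 and 8468 CPM in the cpl2-2 libraries and 10765, 11126 and 11089.8 CPM in the WT libraries. Every cpl2-2 library was below every WT library. The gene fell to 76.4% of the WT level (log2 fold change -0.39, SE 0.02, adjusted p = 4.1e-24), the smallest fall among the 5 genes that fell. Its 3′ end overlaps AT1G29940 on the opposite strand, which was at 25.1 ± 2.53 CPM in cpl2-2 and 27.0 ± 2.13 CPM in WT (SD, n = 3 each) and was not called (adjusted p = 0.37).

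LHCB1.2, which encodes a protein of the same family from the same chromosome 1 cluster, had 1025, 1059 and 1061 CPM in the cpl2-2 libraries and 1734.9, 1719 and 1764 CPM in the WT libraries. The libraries of a genotype lay close together and the genotypes did not overlap. It fell to 60.3% of the WT level (log2 fold change -0.73, SE 0.02, adjusted p = 6.3e-29). LHCB1.1, the third copy of the cluster, had 160.2, 168 and 172 CPM in the cpl2-2 libraries and 234, 236 and 249 CPM in the WT libraries, again without overlap. It fell to 69.7% (log2 fold change -0.52, SE 0.04, adjusted p = 2.3e-16). Counted as 1 row in the fit, the 3 copies of the chromosome 1 cluster had a log2 fold change of -0.43 (SE 0.02), set by the more abundant LHCB1.3. This sum does not depend on how reads were shared among the 3 copies, but it does not bear on LHCB1.1 or LHCB1.2 singly. The part of reads shared with copies elsewhere, or left out of the counts, was not tested.

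LHCB1.5 and LHCB1.4, the divergent pair on chromosome 2, moved in opposite directions. LHCB1.5 had 1126, 1111 and 1117.5 CPM in the cpl2-2 libraries and 1797, 1888 and 1839 CPM in the WT libraries, and fell to 60.7% (log2 fold change -0.72, SE 0.02, adjusted p = 9.2e-29). LHCB1.4 had 291, 282 and 273 CPM in the cpl2-2 libraries and 165, 165 and 154 CPM in the WT libraries, and rose 1.75-fold (log2 fold change 0.81, SE 0.04, adjusted p = 1.4e-23). For both genes the genotypes did not overlap. Within each library, which removes the scaling, LHCB1.5 had 3.86, 3.94 and 4.09 times the counts of LHCB1.4 in cpl2-2 and 10.9, 11.4 and 12.0 times in WT (two-sided exact permutation p = 0.1, the smallest that 3 libraries against 3 can give). Summed to 1 row, the pair had a log2 fold change of -0.52 (SE 0.02), set by the more abundant LHCB1.5.

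LHCB1.5 lies wholly inside AT2G08665, a gene listed on the opposite strand. AT2G08665 had 957, 999 and 1151 counts in the cpl2-2 libraries and 1760, 1569 and 1773 in the WT libraries, which was 4.26% to 4.99% of the LHCB1.5 counts in cpl2-2 and 4.05% to 4.84% in WT. It was called lower, as LHCB1.5 was (log2 fold change -0.70, SE 0.06, adjusted p = 1.6e-13). The kit keeps the strand, but the sources used here do not give the strand setting of the counting. LHCB1.5 had 20.0 to 24.7 times the counts of AT2G08665. The part of LHCB1.5 reads in the AT2G08665 counts was not tested. AT2G34410, whose end overlaps that of LHCB1.5 on the opposite strand, was at 12.9 ± 0.50 CPM in cpl2-2 and 14.0 ± 0.81 CPM in WT (SD, n = 3 each) and was not called (adjusted p = 0.43).

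LHCB2 genes encode the LHCII protein whose phosphorylation is tied to state transitions. LHCB2.3 had 91.5, 90.1 and 91.5 CPM in the cpl2-2 libraries and 20.9, 19.3 and 20.98 CPM in the WT libraries, which in counts was 1716, 1902 and 1887 in cpl2-2 against 424, 396 and 431 in WT. The cpl2-2 libraries agreed closely with one another and all lay far above WT. The rise was 4.46-fold (log2 fold change 2.16, SE 0.06, adjusted p = 4.0e-31). The 3′ part of LHCB2.3 overlaps AT3G27700 on the opposite strand, which was at 14.8 ± 1.01 CPM in cpl2-2 and 17.4 ± 0.74 CPM in WT (SD, n = 3 each) and was not called (adjusted p = 0.070).

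LHCB2.2 had 62.5, 63.5 and 65.8 CPM in the cpl2-2 libraries and 47.4, 47.4 and 44.3 CPM in the WT libraries. It rose 1.38-fold without overlap (log2 fold change 0.46, SE 0.06, adjusted p = 9.3e-09). LHCB2.1 had 66.8, 60.04 and 61.4 CPM in the cpl2-2 libraries and 55.8, 58.1 and 55.7 CPM in the WT libraries. Here the genotypes came close, and the rise was small (1.11-fold, log2 fold change 0.15, SE 0.06, adjusted p = 0.045). Its call was lost without cpl2-2 replicate 1 (log2 fold change 0.10, adjusted p = 0.27) or 3 (0.16, adjusted p = 0.053), without WT replicate 1 (0.14, adjusted p = 0.13), 2 (0.17, adjusted p = 0.059) or 3 (0.14, adjusted p = 0.12). It was also lost with DESeq2 (0.15, adjusted p = 0.11), with the replicate number as a block (0.15, adjusted p = 0.055) and with no filter on low counts (0.14, adjusted p = 0.058). As 1 row, LHCB2.1 and LHCB2.2 together had a log2 fold change of 0.30 (SE 0.04).

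LHCB3 had 341, 377 and 350.2 CPM in the cpl2-2 libraries and 537, 527 and 541 CPM in the WT libraries. No cpl2-2 library reached a WT library. It fell to 66.6% of the WT level (log2 fold change -0.59, SE 0.03, adjusted p = 2.7e-20). The 3′ end of LHCB3 overlaps AT5G54280 on the opposite strand, which was at 8.76 ± 0.58 CPM in cpl2-2 and 8.55 ± 0.33 CPM in WT (SD, n = 3 each) and was not called (adjusted p = 0.87).

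**Figure D2:**
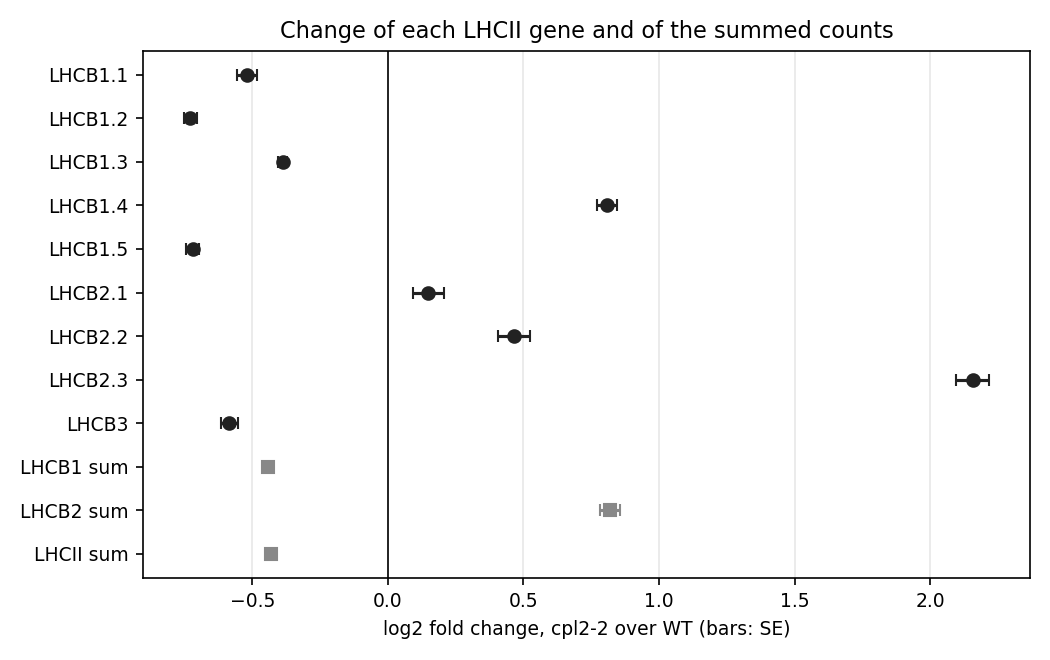
Log2 fold change of cpl2-2 over WT for each LHCII gene (circles) and for counts summed over LHCB1, LHCB2 and all 9 genes (squares), with standard errors as bars. LHCB2.3 stands at 2.16, LHCB1.4 at 0.81, and the 5 genes left of the zero line lie between -0.73 and -0.39.

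Summed over each family, LHCB1 transcripts were at 10987, 10962 and 11092 CPM in the cpl2-2 libraries and 14696, 15134 and 15095 CPM in the WT libraries, a log2 fold change of -0.44 (SE 0.02). LHCB2 sums were 221, 214 and 219 CPM in the cpl2-2 libraries and 124, 125 and 121 CPM in the WT libraries, a log2 fold change of 0.82 (SE 0.04). Neither family's libraries overlapped between genotypes. All 9 genes together took 1.19% ± 0.0075 of all counts in cpl2-2 and 1.53% ± 0.026 in WT (SD, n = 3 each), and their sum had a log2 fold change of -0.43 (SE 0.02). The sums have no p here, because the genes were chosen with results known.

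In absolute CPM the changes were very unequal. The 5 genes that fell differed by -4261 CPM in sum between the genotype means, 60.9% of it in LHCB1.3, 16.97% in LHCB1.5, 16.2% in LHCB1.2, 4.19% in LHCB3 and 1.70% in LHCB1.1. The 4 genes that rose gained 216 CPM, 56.2% of it in LHCB1.4 and 32.8% in LHCB2.3. The gain was 5.06% of the loss.

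The make-up of each family shifted as well. LHCB2.3 made up 41.8% ± 0.37 of LHCB2 counts in cpl2-2 and 16.6% ± 0.98 in WT (SD, n = 3 each), while LHCB2.1 made up 28.8% ± 1.25 in cpl2-2 and 45.9% ± 0.83 in WT, and LHCB2.2 made up 29.4% ± 0.94 in cpl2-2 and 37.6% ± 0.84 in WT. So LHCB2.3 was the largest of the 3 by counts in cpl2-2 and the smallest in WT. Within LHCB1, LHCB1.3 took 76.2% ± 0.13 of counts in cpl2-2 and 73.4% ± 0.14 in WT, and LHCB1.4 took 2.56% ± 0.094 in cpl2-2 and 1.08% ± 0.054 in WT. LHCB1.2 had 9.52% ± 0.17 in cpl2-2 and 11.6% ± 0.23 in WT, LHCB1.5 had 10.2% ± 0.089 in cpl2-2 and 12.3% ± 0.16 in WT, and LHCB1.1 had 1.52% ± 0.051 in cpl2-2 and 1.6% ± 0.046 in WT. For each of the 8 shares the libraries of the genotypes did not overlap (two-sided exact permutation p = 0.1, the smallest possible here).

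**Figure D3:**
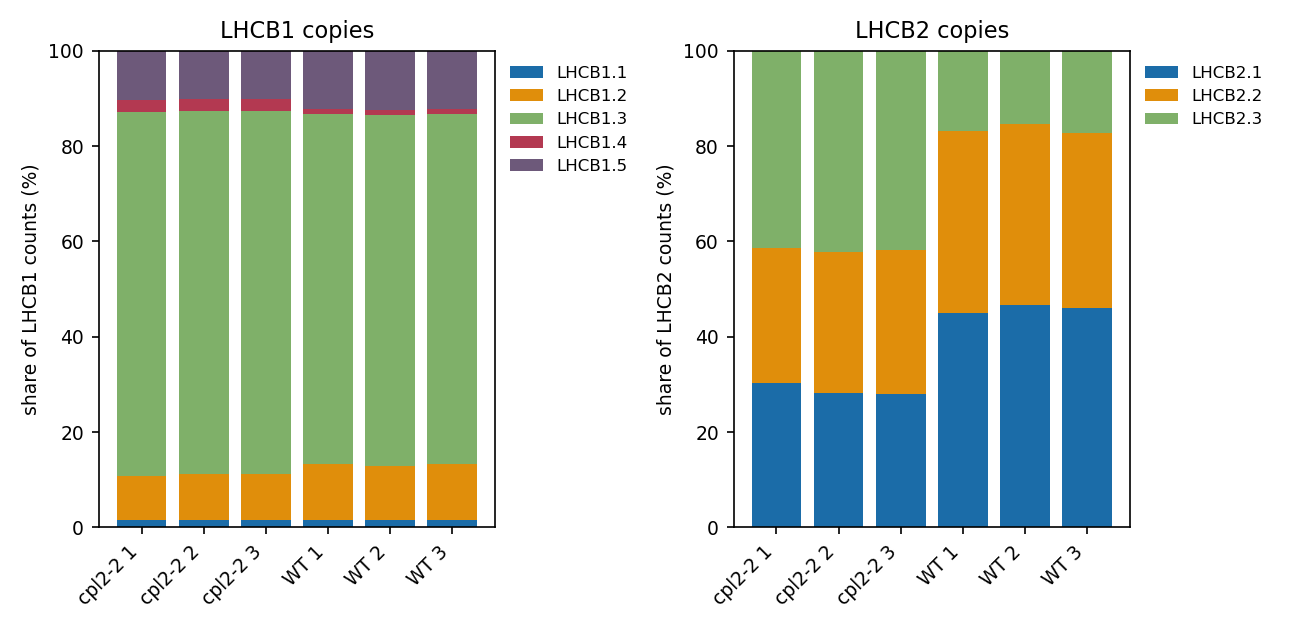
Share of LHCB1 counts (left) and LHCB2 counts (right) taken by each copy, in percent, with 1 bar per library, the 3 cpl2-2 libraries left of the 3 WT libraries. LHCB2.3 fills 41.4% to 42.2% of the LHCB2 bar in cpl2-2 and 15.5% to 17.3% in WT, while LHCB1.3 fills over 73% of the LHCB1 bar in every library.

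Levels can be ranked between genes only per length, so mean CPM was divided by the gene length of the deposited table, in kilobases. In cpl2-2 the order was LHCB1.3 (6828), LHCB1.5 (1070.2), LHCB1.2 (857), LHCB3 (287), LHCB1.4 (215), LHCB1.1 (127), LHCB2.3 (62.1), LHCB2.2 (55.9) and LHCB2.1 (44.6), all in CPM per kilobase. In WT it was LHCB1.3 (8938), LHCB1.5 (1762), LHCB1.2 (1422), LHCB3 (430.5), LHCB1.1 (182), LHCB1.4 (123), LHCB2.2 (40.6), LHCB2.1 (40.2) and LHCB2.3 (13.9). LHCB2.2 and LHCB2.1 overlapped in WT, and all other neighbours in either order were separated in every library. LHCB1.4 and LHCB1.1 exchanged places between the genotypes, and LHCB2.3 stood above the other LHCB2 genes in cpl2-2 and below them in WT.

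Other members of the antenna family were compared next. Over the 50 tested genes of 7 related lists, 9 were called higher and 24 lower, with a median log2 fold change of -0.11, against a median of -0.0017 over all 19302 genes. Over all tested genes 14.1% were called higher and 13.3% lower, and over those averaging 50 CPM or more 20.3% and 35.0%, so the lists' calls are given as descriptions. Of the 5 genes of the minor antennae, which link the trimers to the photosystem II core, 3 fell and 2 rose (median -0.20). LHCB4.1 (log2 fold change -0.20, SE 0.02), LHCB5 (-0.28, SE 0.02) and LHCB6 (-0.20, SE 0.03) fell, whereas LHCB4.2 rose to 351 ± 9.77 CPM in cpl2-2, against 294 ± 8.06 CPM in WT (0.25, SE 0.03, adjusted p = 1.4e-08), and LHCB4.3 to 377 ± 14.5 CPM in cpl2-2, against 284 ± 3.57 CPM in WT (0.41, SE 0.03, adjusted p = 1.6e-14). In LHCB4 the copy with the highest CPM fell and the copies with lower CPM rose. In LHCB1 the copy with the highest CPM fell too, but of the copies with lower CPM only LHCB1.4 rose. LHCB1.1, LHCB1.2 and LHCB1.5 fell by more than LHCB1.3.

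Of the 6 antenna genes of photosystem I, 5 fell and 0 rose (median -0.32). LHCA1 fell by 0.50, LHCA4 by 0.48, LHCA3 by 0.41, LHCA5 by 0.22 and LHCA2 by 0.21 on the log2 scale, and LHCA6 was at 196 ± 2.09 CPM in cpl2-2 and 201 ± 7.06 CPM in WT (log2 fold change -0.04, adjusted p = 0.51). Among 8 other genes of the LHC superfamily, 2 rose and 3 fell (median 0.02). Both that rose encode early light-induced proteins, which bind pigments under high light. ELIP2 was at 27.1 ± 1.46 CPM in cpl2-2 and 2.76 ± 0.54 CPM in WT (SD, n = 3 each; log2 fold change 3.29, SE 0.13, adjusted p = 4.5e-26), and ELIP1 at 34.0 ± 1.51 CPM in cpl2-2 and 15.2 ± 1.92 CPM in WT (1.16, SE 0.09, adjusted p = 2.1e-15). PSBS, needed for the rapid dissipation of excess light energy, fell by 0.14 and OHP2, a one-helix protein, by 0.25 on the log2 scale.

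Of 7 genes for LHCII phosphorylation and its docking site on photosystem I, 6 fell and 0 rose (median -0.20). The kinase gene STN7 was at 71.0 ± 2.19 CPM in cpl2-2 and 68.0 ± 4.41 CPM in WT (log2 fold change 0.06, SE 0.05, adjusted p = 0.44), while TAP38, the phosphatase that opposes it, fell (-0.24, SE 0.04, adjusted p = 2.1e-06). The docking subunit genes PSAH2 (-0.29), PSAL (-0.24) and PSAH1 (-0.19) also fell. PBCP, a phosphatase of photosystem II core proteins, is among the 6 with a call that was lost in 7 of the 12 alternatives, among them without cpl2-2 replicate 1 or 3 and without WT replicate 1 or 3 (log2 fold change -0.20, adjusted p = 0.049, and 0.052 to 0.23 where lost). Of 5 genes that carry LHC proteins through the chloroplast and into the thylakoid membrane, 4 fell and 0 rose (median -0.19): LTD (-0.28), CPFTSY (-0.26), CPSRP54 (-0.19) and the insertase gene ALB3 (-0.12), whose call was lost with library totals (adjusted p = 0.23). CPSRP43 was at 285 ± 9.22 CPM in cpl2-2 and 295 ± 8.74 CPM in WT (adjusted p = 0.30).

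Chlorophyll b, which LHCII needs to fold, is made by CAO. CAO rose to 44.7 ± 0.45 CPM in cpl2-2, against 35.5 ± 3.54 CPM in WT (log2 fold change 0.33, SE 0.07, adjusted p = 1.5e-04), and NYC1, which starts the breakdown of chlorophyll b, fell to 327 ± 2.79 CPM in cpl2-2, against 441 ± 4.4 CPM in WT (-0.43, SE 0.03, adjusted p = 1.8e-16). The other tested genes of this list, NOL (log2 fold change -0.09), HCAR (0.11) and SGR1 (-0.11), were not called, though HCAR was with library totals (adjusted p = 0.037), and SGR2 was under 0.5 CPM on average in both genotypes and not tested. The median of the 5 tested genes was -0.09.

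Of 14 tested regulators of LHCB transcription, 4 were called higher, 2 lower and 8 were not called (median 0.08). GLK1 and GLK2, activators of antenna genes, were higher: GLK2 was at 45.8 ± 2.94 CPM in cpl2-2 and 34.3 ± 2.43 CPM in WT (log2 fold change 0.42, SE 0.07, adjusted p = 2.9e-06), and GLK1 at 165 ± 6.83 CPM in cpl2-2 and 153 ± 8.97 CPM in WT (0.11, SE 0.04, adjusted p = 0.033), a call lost without cpl2-2 replicate 1 (adjusted p = 0.22) or 3 (0.051), without WT replicate 1 (0.33) or 2 (0.081), and with DESeq2 (0.10). GNC, a GATA factor of chloroplast development, rose (0.33, SE 0.06, adjusted p = 4.6e-05), as did GUN4, a regulator of chlorophyll synthesis (0.21, SE 0.05). PIF4, a light-labile bHLH factor, fell to 5.68 ± 0.37 CPM in cpl2-2, against 8.79 ± 0.55 CPM in WT (-0.63, SE 0.15, adjusted p = 6.7e-04), and GUN5, a subunit of magnesium chelatase, fell (-0.17, SE 0.03). HY5, a light-signalling factor, was at 22.5 ± 0.30 CPM in cpl2-2 and 23.1 ± 0.57 CPM in WT (adjusted p = 0.76). CCA1 was under 0.4 CPM on average in both genotypes and ABI4 had no count.

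**Figure D4:**
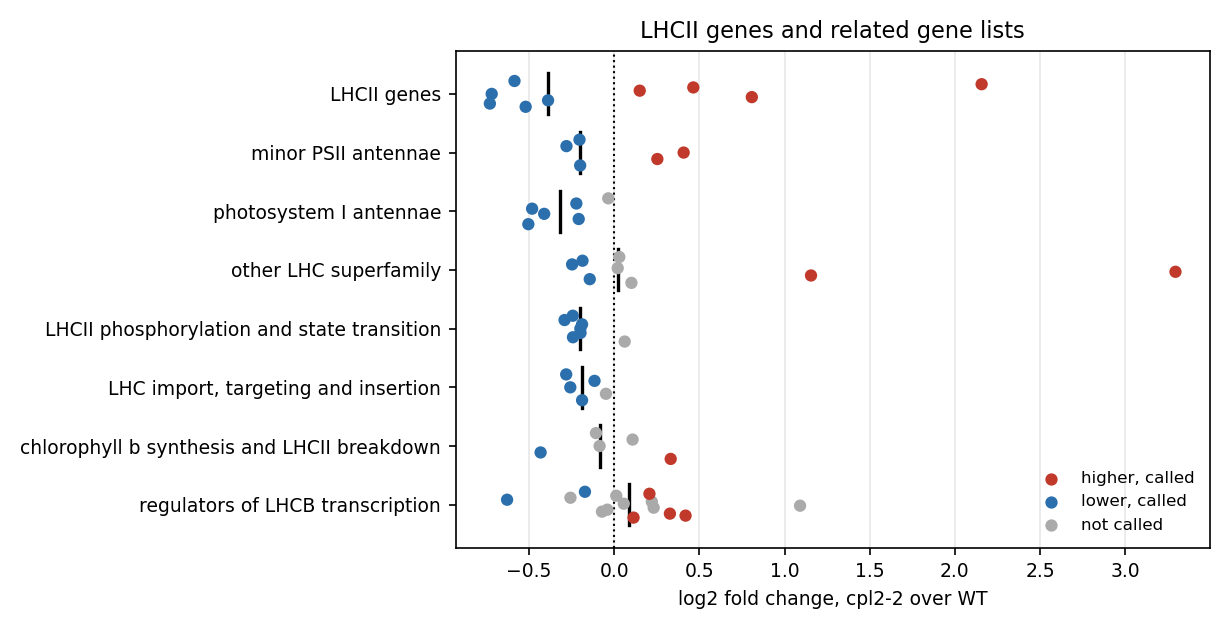
Log2 fold change of cpl2-2 over WT for the tested genes of the LHCII set and of 7 related lists, 1 point per gene; red is called higher, blue called lower and grey not called, vertical bars are list medians and the dotted line is the median of all genes tested. The LHCII set spans -0.73 to 2.16, and the photosystem I antenna genes lie between -0.50 and -0.04.

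Genes whose log2 CPM over the 6 libraries was most like each family were listed as a description, from 11117 tested genes averaging 10 CPM or more. The libraries form 2 genotype groups, so a high correlation records mainly the same direction of difference. For the LHCB1 sum they were DFR, an enzyme of anthocyanin synthesis, AT1G07050 and the tubulin gene TUB5 (Pearson's r 0.999 each); DFR was at 77.0 ± 1.39 CPM in cpl2-2 and 147 ± 3.29 CPM in WT. For the LHCB2 sum they were the nitrate transporter gene NRT1.7, the S-adenosylmethionine synthetase gene SAM1 and the cytochrome P450 gene CYP705A19 (r = 0.9999, 0.9998 and 0.9996); SAM1 was at 354 ± 3.78 CPM in cpl2-2 and 224 ± 2.78 CPM in WT. For LHCB3 they were MTO2 (r = 0.9998), AT1G09690 (0.999) and the expansin-like gene EXLB1 (0.999); EXLB1 was at 12.7 ± 1.02 CPM in cpl2-2 and 22.7 ± 0.19 CPM in WT (SD, n = 3 each, for DFR, SAM1 and EXLB1).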

How the data were processed

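RNA was sequenced from 3 cpl2-2 and 3 WT libraries. The authors deposited raw counts per gene; whole numbers with a different total in every library show that the deposited counts were not normalized. The submitters' processing notes name HISAT2 2.0.5 and TAIR10, and library preparation with NEBNext Ultra II Directional, which keeps the strand, is per the labels' protocols. The sources used here do not give the counting program, its strand setting or the annotation release.

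Of 38192 genes, 25558 had a count and 19302 passed filterByExpr. Counts were TMM-normalized and tested with edgeR 4.0.16 (quasi-likelihood, genotype the only term; R 4.3.3), with p adjusted by Benjamini-Hochberg over the 19302 genes, and the procedure was tested on simulated data. Fold changes are log2 of cpl2-2 over WT. Sums replaced their copies as rows of the same fit. Shares and ratios were compared by exact permutation with scipy 1.17.1. DESeq2 1.42.0, limma-voom (limma 3.58.1), other scalings, no filter, a replicate block and leaving out each library were the alternatives. Chi-square over degrees of freedom between replicates was 2.68 to 3.70, above sampling noise in every pair, so no library was a plain resequencing of another. Separate libraries made from the same RNA would not be told apart by this value.

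Sequences are from RefSeq TAIR10.1, where 37566 of 37570 nuclear genes, and the 9 LHCII genes, have the coordinates and strand of the deposited table. Symbols of genes outside the lists are from RefSeq, matched for 37570 identifiers. Protein sequences are not used here. The genes named are the 9 members, CPL2, from each list the 4 called genes with the smallest p (all genes of lists of 6 or fewer), and the 3 genes most like each family; other named genes were chosen after their values were seen. Members and lists were chosen with earlier results of these data known.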

Additional observations from a re-analysis of the deposited data

How the results depend on the processing

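Under the 12 alternatives run for each gene (library totals, RLE factors, DESeq2, limma-voom, no filter, the replicate block and leaving out each of the 6 libraries), 8 of the 9 LHCII genes kept their direction and call, the exception being LHCB2.1, called in 4 of the 12. The numbers of LHCII genes called stayed at 5 lower and 3 to 4 higher. LHCB1.4 rose in all 12 as its own row. Summed to 1 row with LHCB1.5, the pair had a log2 fold change of -0.52, set by the more abundant LHCB1.5.

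With library totals, which shift all genes by about 0.07 on the log2 scale, 1671 genes were called lower over the whole table, and the log2 fold changes were -0.38 for the LHCB1 sum, 0.89 for the LHCB2 sum and -0.36 for all 9 genes. Counts divided by gene length moved the difference in share, in percentage points, to 3.13 for LHCB1.3, 1.38 for LHCB1.4, -2.42 for LHCB1.5, -15.0 for LHCB2.1 and 23.5 for LHCB2.3. Uncalled list genes changed sign with library totals (LHCA6 0.0328, CPSRP43 0.0191, HY5 0.0273) or without 1 library (LHCB7 -0.0133 to 0.219, OHP1 -0.0301 to 0.0620, LIL3:2 -0.0116 to 0.0899, GUN1 -0.0174 to 0.0397, PIF1 -0.0568 to 0.168 over the 6 omissions). Others gained a call with library totals (LIL3:2, adjusted p = 0.042; HCAR, 0.037; HYH, 0.034; LHY, 0.045), which took the list genes called higher to 13, and LHY also with limma-voom (0.036) and without WT replicate 1 (0.0092).

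Replicate numbers did not pair the libraries, with correlations of -0.01 to 0.01 between same-numbered deviations; with the replicate block 2687 genes were higher and 2541 lower, and LHCB2.1 lost its call (0.15, adjusted p = 0.055), the only LHCII call the block changed. Leaving out libraries gave 4524 to 4833 calls. Depth limits LHCB2.3 in WT most, with 396 to 431 counts a library.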
